A study of Bos taurus with 6 samples.

Results

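The miR-23, miR-27 and miR-24 microRNAs (miRNAs) are encoded in vertebrates as a pair of paralogous clusters, and 8 of the 755 mature bovine miRNA names counted in these libraries carry the number 23, 24 or 27. All 8 names were taken, namely bta-miR-23a, bta-miR-23b-5p, bta-miR-23b-3p, bta-miR-24, bta-miR-24-3p, bta-miR-27a-5p, bta-miR-27a-3p and bta-miR-27b. Small RNA was sequenced from granulosa cells, the somatic cells around the oocyte and along the inner follicle wall, in 3 libraries from preovulatory dominant follicles and 3 libraries from anovulatory subordinate follicles. All follicles came from Simmental heifers whose cycle was synchronized with analogues of prostaglandin and of gonadotropin releasing hormone, and that were slaughtered on day 19 of the estrous cycle. The dominant follicles were the large ones and the subordinate follicles the small ones of the same animals, told apart by outer diameter. The RNA of several samples was pooled before library preparation. Far fewer dominant than subordinate follicles were collected, so a library of dominant follicles may hold few follicles and one of subordinate follicles many.

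A miRNA hairpin is cut into a duplex whose strands are called 5p and 3p, and the strand that is kept guides the silencing of messenger RNAs that match its seed, the short stretch near its 5′ end. Within this family the a and b copies of miR-23 share a seed, the a and b copies of miR-27 share a seed, and each pair differs elsewhere by a single base. MiR-23, miR-27 and miR-24 have seeds of their own and thus different targets, although they are made from one primary transcript per cluster. The family is known for high levels in endothelial cells and for roles in vessel growth, lipid metabolism and cell survival. In the RefSeq annotation of the bovine genome assembly ARS-UCD2.0, the hairpins MIR23A, MIR27A and MIR24-2 (a cluster) are neighbours and lie within the bounds of the gene model LOC132345691. The hairpins MIR23B, MIR27B and MIR24-1 (b cluster) are neighbours within the bounds of AOPEP, which encodes an aminopeptidase. Mature sequences of the members are not printed, because none of the tables used here held them.

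Each mature miRNA was given the count of its largest precursor row, which left between 190385 and 311842 reads per library in preovulatory dominant and between 306932 and 364125 in subordinate follicles. Levels are given as CPM, reads scaled to a common library size with the TMM composition factors of edgeR. At this depth 3 reads equal between 8.86 and 13.9 CPM, and smaller values cannot be told from 0. Libraries of 1 group differed from each other by far more than sampling noise (chi-square per degree of freedom between 18.9 and 99.3), so none was a repeat of another. The summed level of 7 marker miRNAs of blood cells varied widely within the dominant group. It was 14206, 8901 and 1306 CPM in dominant replicates 1, 2 and 3, against 1366 to 2029 CPM in subordinate follicles. Of these 7, bta-miR-486 was the most abundant, and bta-miR-142-3p was close to 0 with a mean of 0.33 reads per library. Bta-miR-486 alone was at 10808, 6512 and 927 CPM in dominant replicates 1, 2 and 3. The sum thus mostly follows bta-miR-486 and does not stand for each of the 7. Bta-miR-451 had the same order, at 2265, 1725 and 121 CPM in dominant replicates 1, 2 and 3.

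Of the 8 names, 5 counted as detected, with 1 read or more in 2 or more libraries of either follicle type. These were bta-miR-27b, bta-miR-23b-3p, bta-miR-24-3p, bta-miR-27a-3p and bta-miR-23a, in descending order of their mean level in both groups. The other 3 names, bta-miR-23b-5p, bta-miR-27a-5p and bta-miR-24, had between 0 and 4 reads in any library. None of the 5 detected names was called differentially expressed by edgeR's quasi-likelihood test, where a call needed a change of 1 or more on the log2 scale, an unadjusted value up to 0.05 and a false discovery rate (the adjusted p) up to 0.1. Over all 353 miRNAs tested, 76 were called (21.5%), of which 42 were higher (11.9%) and 34 lower (9.63%) in dominant follicles, and 118 had an unadjusted p under 0.05. With DESeq2 the number of family members called was likewise 0, and 1 of the 5, bta-miR-27b, had an unadjusted edgeR p under 0.05.

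Bta-miR-27b, the b copy of miR-27, was the most abundant member by far. Its read counts were 8639, 7195 and 9596 in dominant and 13805, 11712 and 14067 in subordinate follicles. As normalized level this was 30484, 33373 and 30556 CPM in dominant and 40767, 37883 and 49641 CPM in subordinate follicles, or 31471 ± 1648 and 42764 ± 6128 CPM (SD, n = 3 each). Every library of subordinate follicles was above every library of dominant follicles, with subordinate replicate 3 the highest. Non-overlapping groups were found for 36.8% of all miRNAs tested, and for 1 of the 5 detected members. In each library bta-miR-27b stood between the 4th and the 10th place among all mature miRNAs by read count.

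The log2 fold change of bta-miR-27b, dominant against subordinate, was -0.44 (standard error 0.15), with an edgeR adjusted p = 0.0627 and a mean level 1.36-fold higher in subordinate follicles. It passed a false discovery rate of 0.1 but not the fold minimum. Without the fold minimum 107 miRNAs passed (30.3%), 57 of them higher (16.1%) and 50 lower (14.2%), and bta-miR-27b was the 1 member among them. With the replicate number as a block the log2 fold change was -0.43 and the adjusted p from edgeR was 0.168. Scaling to total count alone moved it to -0.23 (adjusted p = 0.343). That scaling also moved the median log2 fold change of all miRNAs tested from -0.20 to -0.012, and the split of called miRNAs from 42 higher and 34 lower to 47 higher and 23 lower. Relative to that median, bta-miR-27b was at -0.24 with TMM and at -0.22 with total count. The median depends on the miRNAs included. With TMM it was -0.10 for the 134 miRNAs that averaged 50 reads or more. Leaving out any 1 library except subordinate replicate 2 raised the adjusted p above 0.1, to between 0.117 and 0.176.

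Bta-miR-23b-3p, the guide strand of miR-23b from the same cluster as miR-27b, was the second most abundant member. Its read counts were 766, 505 and 732 in dominant and 747, 731 and 627 in subordinate follicles. In CPM the libraries were at 2703, 2342 and 2331 in dominant and 2206, 2364 and 2213 in subordinate follicles, and the groups overlapped. The log2 fold change was 0.12 (standard error 0.16, adjusted p = 0.622 from edgeR). Its spread between replicates was narrow, with a coefficient of variation of 8.6% in dominant and 3.97% in subordinate follicles.

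Bta-miR-24-3p, the guide strand of miR-24, can come from either cluster. It is listed under both bta-mir-24-1 (b cluster) and bta-mir-24-2 (a cluster), and the rows of these precursors were nearly the same. The row of bta-mir-24-1 exceeded that of bta-mir-24-2 by 0, 2 and 3 reads in dominant and by 5, 0 and 2 reads in subordinate follicles, out of 391 to 492 reads. The counts thus give no split of miR-24 between the clusters. The level of bta-miR-24-3p was 1669, 1860 and 1446 CPM in dominant follicles and 1453, 1265 and 1493 CPM in subordinate follicles. The groups overlapped through dominant replicate 3, which lay below subordinate replicates 1 and 3. The log2 fold change was 0.24 (standard error 0.19, adjusted p = 0.386 from edgeR).

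Bta-miR-27a-3p, the a copy of miR-27, was at 438, 520 and 516 CPM in preovulatory dominant and at 540, 456 and 452 CPM in subordinate follicles. Its mean level was 491 ± 46.3 CPM in dominant and 483 ± 50.01 CPM in subordinate follicles (SD, n = 3 each). The groups overlapped, and the log2 fold change of 0.023 (edgeR standard error 0.20, adjusted p = 0.926) was well within its error and changed sign when dominant replicate 3 (-0.032), subordinate replicate 2 (-0.017) or subordinate replicate 3 (-0.022) was left out.

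Bta-miR-23a, the a copy of miR-23, was the least abundant of the 5 detected members, with 84, 72 and 105 reads in dominant and 70, 57 and 86 reads in subordinate follicles. In CPM this was 296.4, 334 and 334 in dominant follicles against 207, 184 and 303 in subordinate follicles. Subordinate replicate 3 lay among the dominant libraries, while the other two subordinate libraries were below all of them. The log2 fold change was 0.48 (standard error 0.25, adjusted p = 0.224 from edgeR). Without subordinate replicate 3 it was 0.72 (standard error 0.21, adjusted p = 0.0544), which passes a false discovery rate of 0.1. MiR-23a and miR-27a have been described as promoting apoptosis of granulosa cells in culture.

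**Figure D1:**
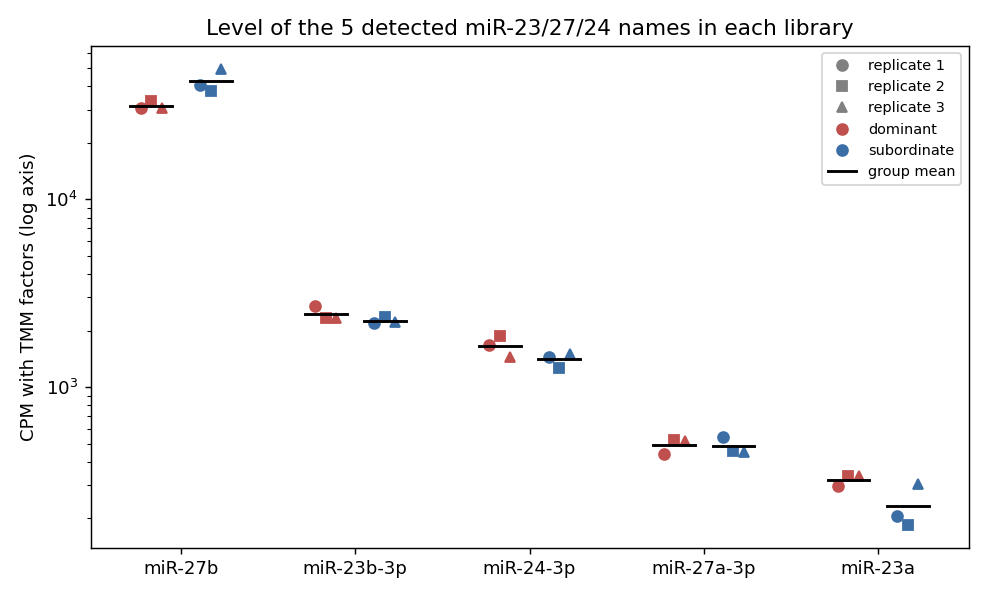
Levels of the 5 detected names (x axis) in CPM with TMM factors (y axis, log scale) for each library, with a marker shape per replicate, red for preovulatory dominant and blue for subordinate follicles, and a black line at each group mean (n = 3). Bta-miR-27b lies at 30484 CPM or higher in every library and is the 1 member whose groups do not overlap, and bta-miR-23a is lowest, with subordinate replicate 3 (303 CPM) among the dominant libraries.

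As a list, 4 of the 5 detected members had a positive log2 fold change and 1 a negative one, with a median of 0.12 beside -0.20 for all 353 miRNAs. The median size of the log2 fold change, regardless of sign, was 0.24 for the 5 members, 0.75 for all miRNAs tested and 0.58 for the 134 miRNAs that averaged 50 reads or more, of which 29.9% were called. For comparison, 4 of the 7 names of the miR-17~92 cluster, which drives proliferation, were called lower, with a median log2 fold change of -1.23. All 3 names of the cluster of miR-183, miR-96 and miR-182 were called higher, with a median of 6.55. None of these counts over a list carries a test.

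**Figure D2:**
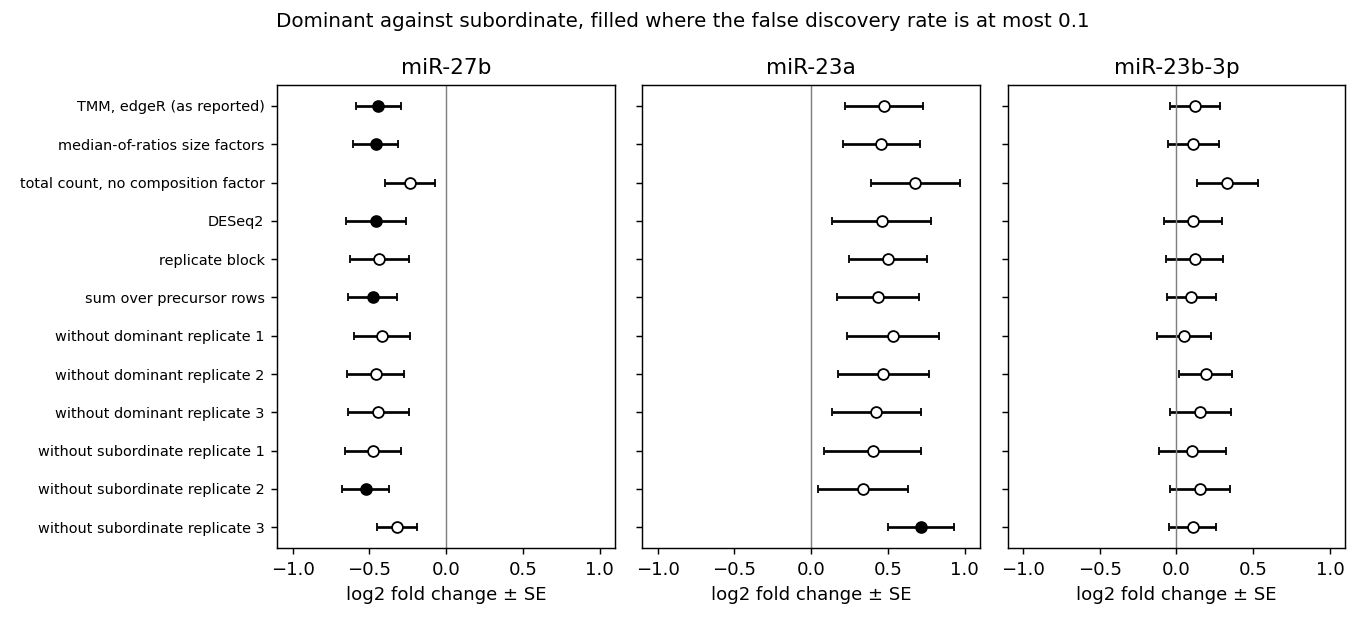
Log2 fold change of bta-miR-27b, bta-miR-23a and bta-miR-23b-3p (panels, x axis, bars are the standard error) under each processing choice or left-out library (y axis), filled where the false discovery rate is at most 0.1. Bta-miR-27b stays negative in every row shown, from -0.52 to -0.23, but is filled in only part of them, and bta-miR-23a is filled only without subordinate replicate 3.

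The b copies outnumbered the a copies in every library. Reads of bta-miR-27b were 69.7, 64.2 and 59.2 times those of bta-miR-27a-3p in dominant follicles and 75.4, 83.1 and 110 times in subordinate follicles. On the log2 scale, after adding 1 read to each count, the ratio was 6.22 ± 0.32 (SD, n = 6 libraries) and above 0 in 6 of 6 libraries (exact sign-flip test, two-sided p = 0.031, the smallest that 6 libraries allow, and 0.031 after Benjamini-Hochberg adjustment over 9 ratios). This test treats the 6 pools as independent of each other, although animals gave follicles to both groups. Bta-miR-27a-3p made up 0.902% (95% exact binomial interval 0.753 to 1.07%) of the miR-27 reads of both copies in subordinate replicate 3 and 1.66% (1.42 to 1.93%) in dominant replicate 3, the extremes of the 6 libraries. Since the copies differ by a single base, reads of the b copy with an error at that base could have been counted as the a copy. Their part in the reads of bta-miR-27a-3p was not tested.

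For miR-23 the imbalance was smaller. Reads of bta-miR-23b-3p were 9.12, 7.01 and 6.97 times those of bta-miR-23a in dominant follicles and 10.7, 12.8 and 7.29 times in subordinate follicles. The log2 ratio was 3.11 ± 0.36 (SD, n = 6 libraries), also above 0 in 6 of 6 libraries (exact sign-flip test, p = 0.031). Bta-miR-23a thus accounted for 7.23% (95% exact binomial interval 5.52 to 9.27%) to 12.5% (10.4 to 15.0%) of the miR-23 reads of both copies. Such intervals cover counting error only.

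Within the b cluster, bta-miR-27b had 11.3, 14.2 and 13.1 times as many reads as bta-miR-23b-3p in preovulatory dominant follicles and 18.5, 16.0 and 22.4 times as many in subordinate follicles. Within the a cluster, bta-miR-27a-3p had 1.48, 1.56 and 1.54 times as many reads as bta-miR-23a in dominant and 2.61, 2.47 and 1.49 times as many in subordinate follicles. The ratio of miR-27 to miR-23 was therefore between 6.48 and 15.1 times larger in the b than in the a cluster, in each of the 6 libraries. Bta-miR-24-3p, which can come from either cluster, had fewer reads than bta-miR-23b-3p in all 6 libraries, with ratios between 0.535 and 0.794. This ratio is thus not confined to the b cluster. The log2 ratio, -0.63 ± 0.19 (SD, n = 6 libraries), was below 0 in 6 of 6 libraries (exact sign-flip test, p = 0.031), and it turned to 0.36 when the rows of both miR-24 precursors were added up. Mature miRNAs are of nearly equal length, so these reads were compared without a length correction. The efficiency with which each sequence is ligated to the adapters was not measured.

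**Figure D3:**
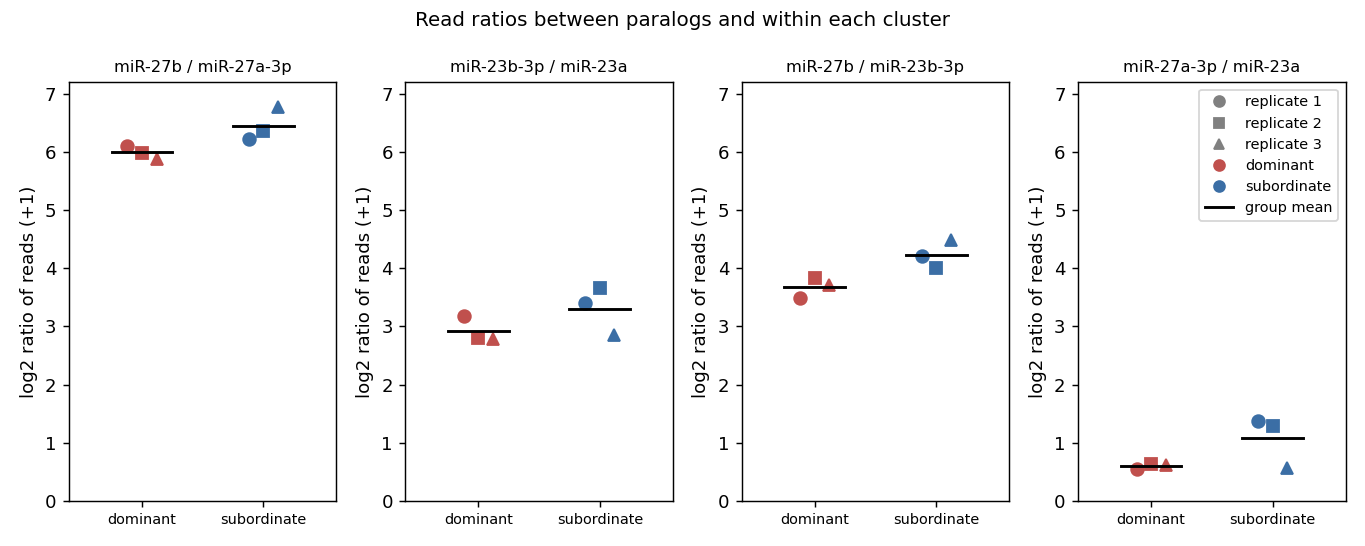
Log2 ratio of read counts, after adding 1 read to each (y axes), in preovulatory dominant and subordinate follicles (x axes) for 4 pairs of members, with a marker shape per replicate and a black line at each group mean (n = 3). The groups are apart for miR-27b over miR-27a-3p and for miR-27b over miR-23b-3p, and overlap for miR-23b-3p over miR-23a and for miR-27a-3p over miR-23a.

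These ratios do not depend on the scaling of the libraries, and so show how the members moved against each other between the groups. The log2 ratio of bta-miR-27b to bta-miR-23b-3p was 3.68 ± 0.17 in dominant and 4.23 ± 0.24 in subordinate follicles (SD, n = 3 each), a difference of -0.55 without overlap. The exact permutation test, two-sided, gave p = 0.1, the smallest that 3 libraries against 3 allow, and 0.3 after Benjamini-Hochberg adjustment over the 9 ratios compared. The ratio of bta-miR-27b to bta-miR-27a-3p differed by -0.46, from 6.45 ± 0.28 in subordinate to 5.99 ± 0.12 in dominant follicles (SD, n = 3 each; exact permutation test, p = 0.1, adjusted p = 0.3), again without overlap. Summed over copies, the ratio of the b names to the a names differed by -0.59, from 5.96 ± 0.13 to 5.38 ± 0.11 (SD, n = 3 each; exact permutation test, p = 0.1, adjusted p = 0.3). The b sum consists mostly of bta-miR-27b, which is also the numerator of the other 2 ratios. The 3 differences therefore rest largely on the same reads. In all 3 of these ratios the groups did not overlap, so dominant was below subordinate in any pairing of libraries. The 3 pairs with the same replicate number (exact sign-flip test over 3 pairs, p = 0.25, the smallest possible) therefore add no support.

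In the other ratios of detected members that were computed, the groups overlapped. Not every pair was compared, and the ratios of bta-miR-27b to bta-miR-24-3p and to bta-miR-23a were not computed. The log2 ratio of bta-miR-23b-3p to bta-miR-23a differed by -0.38 (exact permutation test, p = 0.2, adjusted p = 0.45) and that of bta-miR-27a-3p to bta-miR-23a by -0.48 (exact permutation test, p = 0.3, adjusted p = 0.54). In both, subordinate replicate 3 lay within the range of the dominant libraries. The ratio of bta-miR-23b-3p to bta-miR-23a was also lower in dominant than in subordinate follicles in each of the 3 pairs of the same replicate number, by -0.22, -0.86 and -0.06 (exact sign-flip test, p = 0.25), whereas that of bta-miR-27a-3p to bta-miR-23a was lower in 2 of the 3. The ratio of bta-miR-24-3p to bta-miR-23b-3p differed by 0.12 (exact permutation test, p = 0.6, adjusted p = 0.771), less than the spread between replicates.

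As a share of the reads of all 8 names, bta-miR-27b took 85.65, 86.81 and 86.85% in dominant and 90.25, 89.85 and 91.73% in subordinate libraries. The means were 86.4 ± 0.680% and 90.6 ± 0.992% (SD, n = 3 each), and the groups did not overlap (exact permutation test, two-sided p = 0.1, the smallest possible). Bta-miR-23b-3p took 6.77 ± 0.761% in dominant and 4.86 ± 0.760% in subordinate follicles (SD, n = 3 each). The corresponding shares of bta-miR-24-3p were 4.55 ± 0.385% and 2.99 ± 0.229% (SD, n = 3 each). Bta-miR-27a-3p took 1.35 ± 0.118% and 1.04 ± 0.185%, and bta-miR-23a took 0.884 ± 0.0602% and 0.485 ± 0.0662% (SD, n = 3 each). Shares add up to a fixed total, so a higher share of bta-miR-27b lowers all others.

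**Figure D4:**
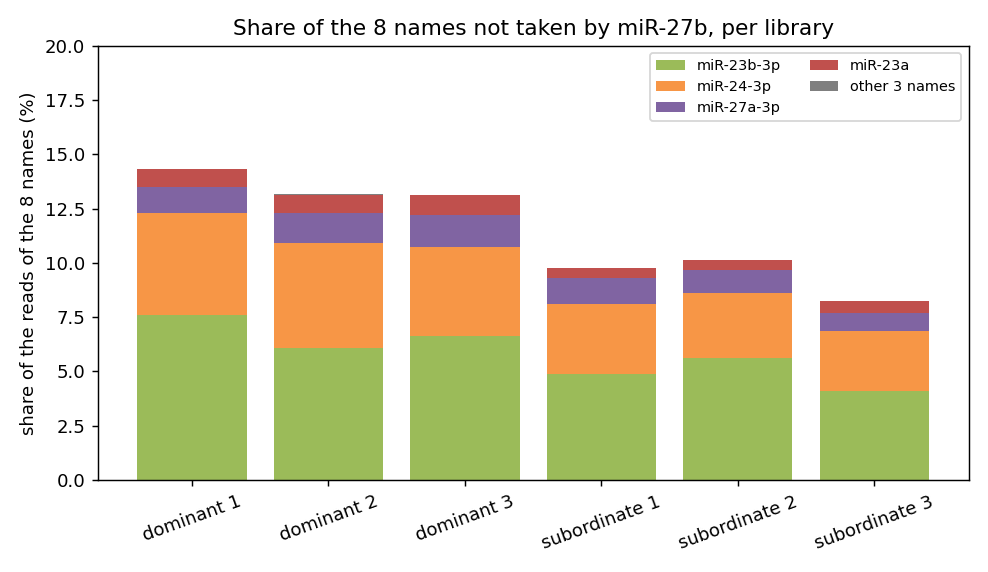
Stacked share of the reads of the 8 names that did not belong to bta-miR-27b (y axis, %) in each library (x axis), with a colour per name. The stacks are higher in the 3 libraries of preovulatory dominant follicles than in the 3 of subordinate follicles, with bta-miR-23b-3p and bta-miR-24-3p as the largest parts.

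Together the 8 names made up 3.88, 4.35 and 3.54% of all reads in dominant and 4.631, 3.58 and 4.996% in subordinate follicles, with 1 value per mature miRNA in the denominator. The groups overlapped (exact permutation test, p = 0.4), since subordinate replicate 2 lay between dominant replicates 3 and 1.

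The passenger strands bta-miR-23b-5p and bta-miR-27a-5p, and the name bta-miR-24, were at the limit of detection. Bta-miR-23b-5p had 1 read in all libraries together, in subordinate replicate 2, against 4108 reads of bta-miR-23b-3p, which is 0.0243% of the reads of both arms (95% exact binomial interval 0.000616 to 0.136%). Bta-miR-27a-5p had 1 read in dominant replicate 2 and 2 reads in subordinate replicate 2, or 0.352% (0.0726 to 1.02%) of the reads of both arms. Bta-miR-24, the name listed under bta-mir-24-1 beside bta-miR-24-3p, had 2 reads in dominant replicate 2 and 4 in subordinate replicate 3, or 0.227% (0.0835 to 0.494%) of the reads of both names. The log2 ratios of these pairs were above 0 in 6 of 6 libraries (exact sign-flip test, p = 0.031 each), and no difference between the groups was detectable at this depth (exact permutation test, p between 0.6 and 1). No 5p or 3p partner name of bta-miR-23a or of bta-miR-27b was counted in these files.

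Outside the family, 3 miRNAs had the profile over the 6 libraries closest to that of bta-miR-27b, by the root mean square difference of log2 CPM after centring each profile on its mean, among 129 miRNAs that averaged 50 reads or more. They were bta-miR-423-5p (0.13), bta-miR-151-5p (0.13) and bta-miR-125a (0.15), where the median of the 129 was 0.46. The members of the family were farther from bta-miR-27b, at 0.29 for bta-miR-27a-3p, 0.33 for bta-miR-23b-3p, 0.35 for bta-miR-24-3p and 0.48 for bta-miR-23a. Of the 129 miRNAs, 40 were closer to bta-miR-27b than its cluster neighbour bta-miR-23b-3p was. Bta-let-7e was closest to bta-miR-23b-3p (0.022) and bta-let-7c closest to bta-miR-24-3p (0.11). The distance between bta-miR-23b-3p and bta-miR-24-3p was 0.17.

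Because the family is abundant in endothelium, miRNAs of other cell types that a granulosa cell preparation can hold were summed per library. Bta-miR-126-5p and bta-miR-126-3p, which mark endothelium, summed to 293, 199.4 and 73.2 CPM in preovulatory dominant and to 354, 385 and 540 CPM in subordinate follicles. Like bta-miR-27b, this sum was lower in all libraries of dominant follicles and highest in subordinate replicate 3. Neither bta-miR-126-5p nor bta-miR-126-3p was called (adjusted p = 0.113 and 0.105 from edgeR). Groups without overlap were found for 36.8% of all miRNAs tested. The part of this sum in the level of bta-miR-27b was not tested. In bulk RNA, fewer cells of a type and less RNA per cell cannot be told apart. Blood cell miRNAs, mostly bta-miR-486, summed to 14206, 8901 and 1306 CPM in dominant replicates 1, 2 and 3. Bta-miR-27b was at 30484, 33373 and 30556 CPM there, and the part of the blood cell miRNAs in its level was not tested. The 6 miRNAs of stroma and theca summed to between 17640 and 27862 CPM in dominant and between 21106 and 35797 CPM in subordinate follicles, which overlapped. Bta-miR-143 was the most abundant of them. All 6 had negative log2 fold changes, from -1.52 to -0.26 with a median of -0.73 beside -0.20 for all miRNAs tested. The -1.52, of bta-miR-199b, rested mostly on subordinate replicate 3. Its level was 41.3, 45.3 and 198 CPM in subordinate replicates 1, 2 and 3, against 38.8, 37.1 and 22.3 CPM in dominant follicles. The part of the 6 miRNAs in the level of bta-miR-27b was not tested. Of these 6, bta-miR-214 was called lower in dominant follicles (log2 fold change -1.20, standard error 0.35, adjusted p = 0.0418 from edgeR).

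Of 9 miRNAs linked to vessel growth, 1 was called higher and 3 lower in preovulatory dominant follicles, with a median log2 fold change of -1.09. Over all miRNAs tested 11.9% were called higher and 9.63% lower, and 29.9% of the 134 that averaged 50 reads or more were called in either direction. The 9 were not sorted by whether they promote or restrain vessel growth, so these counts give no direction for it. Bta-miR-221 was higher by 1.63 on the log2 scale (standard error 0.26, edgeR adjusted p = 0.00259). Bta-miR-296 was lower by -2.41 (standard error 0.28, adjusted p = 0.000426). Bta-miR-92a, a member of the miR-17~92 cluster, was lower by -1.97 (standard error 0.21, adjusted p = 0.00027), and bta-miR-378 by -1.74 (standard error 0.38, adjusted p = 0.0133). None of the 5 detected members of the miR-23/27/24 family reached the fold minimum in either direction, and the largest size was 0.48, for bta-miR-23a.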

How the data were processed

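Small RNA libraries of bovine granulosa cells were prepared from pooled RNA and sequenced by the authors. The deposited values are raw read counts: the authors called bases with CASAVA 1.8.0, trimmed adapters and removed short and low-quality reads with cutadapt and Seqtk, mapped reads to the bovine genome (UMD3.1 per the labels) with Bowtie and counted them on miRBase miRNAs with miRDeep2. Each of 906 rows is a pair of mature miRNA and precursor. Reads that match several precursors are listed under each, so the largest row per mature name was used. The labels gave each library's group and replicate number. The test was edgeR 4.0.16 (R 4.3.3) with TMM, a quasi-likelihood fit on follicle type and Benjamini-Hochberg adjustment over 353 detected miRNAs. Standard errors were derived from the fold change and the F statistic. Ratios were computed per library after adding 1 read to both counts and tested by exact permutation and exact sign flips (Python 3.11.15, scipy 1.17.1, numpy 2.4.6, pandas 2.3.3, matplotlib 3.10.9). Alternatives were DESeq2 1.42.0, other scalings and filters, summed precursor rows, 0.5 reads added, a replicate block, other thresholds and each library left out.

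Deviations from the group means were taken on log2 CPM of 194 miRNAs averaging 10 reads or more. Between libraries of the same replicate number they correlated with r of 0.12, 0.37 and 0.41, each over 0.1. Dominant replicate 2 and subordinate replicate 1 also correlated (r = 0.185), and the remaining pairs of unlike number had r from -0.398 to 0.086. The numbers were taken as pairs only in the replicate block and in the sign flips over 3 pairs. The main edgeR fit and the permutation tests did not use them. The labels do not say what the numbers share. P-values measure the spread between these pools. Fits were tested on simulated data. The members and lists were chosen with earlier results of these data known. Named are all 8 members, the nearest profiles of bta-miR-27b (3), bta-miR-23b-3p (1) and bta-miR-24-3p (1), and called miRNAs of the vessel growth list. Beyond that rule, bta-miR-214, bta-miR-143, bta-miR-199b, bta-miR-486, bta-miR-451 and bta-miR-142-3p were named after their values were seen.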

Additional observations from a re-analysis of the deposited data

How the results depend on the processing

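Of 16 alternatives, none moved the number of called miRNAs (76) by more than 1.5 times (54 to 107), and the number of family members called stayed at 0 except with a false discovery rate of 0.1 and no fold minimum, where it was 1. For bta-miR-27b the sign held in all 14 alternatives. Its false discovery rate rose above 0.1 with total count (log2 fold change -0.23), with the replicate block (-0.43) and without 5 of the 6 libraries in turn, with log2 fold changes from -0.52 to -0.32 over all left-out libraries. The replicate block changed no call of another member. Left-out libraries gave 0.33 to 0.72 for bta-miR-23a and -0.032 to 0.11 for bta-miR-27a-3p, which was -0.0074 with summed precursor rows. The group difference of the log2 ratio changed sign with a left-out library for bta-miR-24-3p over bta-miR-23b-3p (-0.0014 to 0.18), for the arms of miR-23b (-0.0595 to 0.46) and of miR-27a (-0.56 to 0.46), and for bta-miR-24-3p over bta-miR-24 (-0.52 to 0.87). The causes were not tested. Within libraries, bta-miR-24-3p over bta-miR-23b-3p turned to 0.36 with summed precursor rows, since that doubles the miR-24 count by construction. The other ratios and both shares kept their sign in every alternative. The 3 names that were not detected carry wide counting errors, and 3 libraries against 3 cannot reach p below 0.1 in the exact test.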
